A study of Mus musculus with 1049 samples.

Results

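The 45 genes described here carry out DNA replication (17 genes, called S phase members) or mitosis (28 genes, called mitosis members). They were chosen by name, from textbook roles, but with earlier results of these data known. Of the 51777 gene entries counted on every plate, all 45 were found in the tables. Of the mouse dermal fibroblasts in which they were read, 249 newborn, 246 young and 240 old cells were kept, 735 in all. The mice were C57Bl/6, with no other genotype and no treatment named. Newborn means 1.5 or 2.5 days of age, young 2 months and old 18 months. The sort for live fibroblasts used CD34, Pdgfra and the lineage stains CD45 (immune), CD117 (mast cell), EpCam (epithelial) and CD31 (endothelial), with 1 cell per well, and patches of growing hair were taken off the skin beforehand. Each cell was sequenced with Smart-seq2, which copies polyadenylated RNA along its full length without molecular identifiers, so reads are not independent molecules. The work was done in 2 experiments, and each of the 9 plates held all 3 ages. The labels name neither mice nor which newborn age went to which experiment, so every p-value below measures only the spread between these 2 experiments.

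A cell that divides first licenses its replication origins by loading the ring of Mcm proteins, then copies its DNA from nucleotides made for that purpose, and then builds a spindle, attaches chromosomes to it through kinetochores and separates them. The genes for these steps are switched on in waves. S phase genes are known targets of the E2F factors. Mitosis genes are known to be held down in resting cells by the DREAM complex at a short element called CHR (TTTGAA) and to be driven by NF-Y at CCAAT boxes. Fibroblasts of growing newborn skin divide, whereas those of adult dermis are known to be mostly quiescent.

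In newborn dermis a minority of cells carried many of these genes together, and no adult cell did. A member counted as read in a cell when it kept at least 1 read after the cell was thinned to 100000 reads, so that cells of different depth could be compared. Of the newborn cells, 29 of 158 in experiment 1 (18.4%, exact 95% interval 12.7 to 25.3%) and 15 of 91 in experiment 2 (16.5%, 9.53 to 25.7%) read at least 5 members, and the highest cells read 34 and 32 of the 45. Of 486 adult cells, 0 did, which allows a share of up to 0.617% by 3 cells of the total and 0.756% by the exact 95% interval (counting of cells only), and the highest adult cells read 4. Where adult cells read members at all, these were mostly S phase members, above all Pcna, the sliding clamp of DNA polymerases.

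Promoters are shown of the 2 S phase and 2 mitosis members with the highest newborn level per kb of exon among the 37 members with a RefSeq promoter, to set the letters of the CCAAT box and the CHR side by side in both phases. They are the 250 bases before the start site in RefSeq (build GRCm38.p6), 5′ to 3′ on the gene's strand, with capitals on each CCAAT box (written in reverse complement where it lies on the opposite strand) and on each TTTGAA. Pcna lies at chr2:132253181-132253430 (minus strand), Rrm2 at chr12:24708004-24708253 (plus), Ccnb2 at chr9:70421555-70421804 (minus) and Cdc20 at chr4:118437344-118437593 (minus).
Pcna: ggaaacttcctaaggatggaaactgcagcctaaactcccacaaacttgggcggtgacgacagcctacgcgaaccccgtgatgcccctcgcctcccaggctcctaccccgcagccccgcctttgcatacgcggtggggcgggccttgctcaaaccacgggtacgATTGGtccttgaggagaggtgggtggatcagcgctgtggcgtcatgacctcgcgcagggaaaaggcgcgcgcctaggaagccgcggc
Rrm2: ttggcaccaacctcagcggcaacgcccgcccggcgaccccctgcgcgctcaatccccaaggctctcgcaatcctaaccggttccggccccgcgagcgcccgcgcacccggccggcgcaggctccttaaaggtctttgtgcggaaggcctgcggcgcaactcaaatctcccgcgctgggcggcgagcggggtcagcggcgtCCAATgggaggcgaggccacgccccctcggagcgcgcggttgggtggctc
Ccnb2: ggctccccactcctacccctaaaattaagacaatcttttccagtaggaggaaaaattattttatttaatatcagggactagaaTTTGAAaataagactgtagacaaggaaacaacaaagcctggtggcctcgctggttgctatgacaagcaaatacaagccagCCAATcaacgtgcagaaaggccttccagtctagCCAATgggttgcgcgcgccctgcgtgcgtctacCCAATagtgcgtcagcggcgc
Cdc20: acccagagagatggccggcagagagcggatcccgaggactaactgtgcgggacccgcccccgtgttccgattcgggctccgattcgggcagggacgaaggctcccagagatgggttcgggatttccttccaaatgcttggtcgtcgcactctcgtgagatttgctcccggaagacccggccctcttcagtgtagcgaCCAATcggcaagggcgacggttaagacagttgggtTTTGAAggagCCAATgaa

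The Pcna and Rrm2 windows each held 1 CCAAT, 87 to 83 and 50 to 46 bases before the start, and no TTTGAA. The window of Ccnb2, which encodes cyclin B2, held 3 CCAAT boxes, the nearest 21 to 17 bases before the start, and 1 TTTGAA at 167 to 162. That of Cdc20, the activator of the anaphase-promoting complex, held CCAAT at 53 to 49 and 8 to 4 bases before the start with a TTTGAA between them at 18 to 13. RefSeq promoters were matched for 37 members; Aurkb, Ccna2, Gins2, Mcm4, Pbk, Spc24, Stmn1 and Tpx2 had no entry. On either strand, CCAAT was present in 10 of 15 S phase and 18 of 22 mitosis promoters, against 34.5% of all 27025 promoters of this length. TTTGAA was present in 1 of 15 S phase and 7 of 22 mitosis promoters, against 16.3% of all. Each of the 7 mitosis promoters with TTTGAA (Cdk1, Ccnb2, Cdc20, Ube2c, Kif11, Top2a and Mki67) also held CCAAT, a combination found in 5.73% of all promoters. Any of the E2F-type words TTTGGCGC, TTTCCCGC, TTTGGCGG and TTTCGCGC was found in 4 of 15 S phase promoters (Mcm5, Mcm6, Mcm7 and Cdc6), in 1 of 22 mitosis promoters (Cdk1) and in 2.00% of all. None of the 4 promoters shown, Pcna and Rrm2 included, held one of these words. These words can overlap each other, and a match describes letters in a window, not a bound site.

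Over all cells, the mean number of members read per cell was 4.64 and 4.09 in newborn dermis (experiments 1 and 2), 0.761 and 1.22 in young dermis and 0.706 and 0.842 in old dermis. Both newborn values lay above all 4 adult values, by 3.48 members on average, and the exact permutation test over the 6 values (two-sided) gave p = 0.0667, the smallest that 2 values against 4 can give. With all reads of each cell in place of 100000, the means were 4.78 and 4.25, 0.866 and 1.38, and 0.770 and 0.904. The medians were close to each other, 2 and 1 in newborn and 1 in every adult group, so the newborn mean was carried by the cells with many members. No member was read in 34 and 21 newborn cells (21.5 and 23.1%), 64 and 22 young cells (45.1 and 21.2%) and 59 and 42 old cells (46.8 and 36.8%), and these shares overlapped between newborn and young dermis. Young cells of experiment 2 read more members than those of experiment 1, and their share without a member lay just under both newborn shares.

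**Figure D1:**
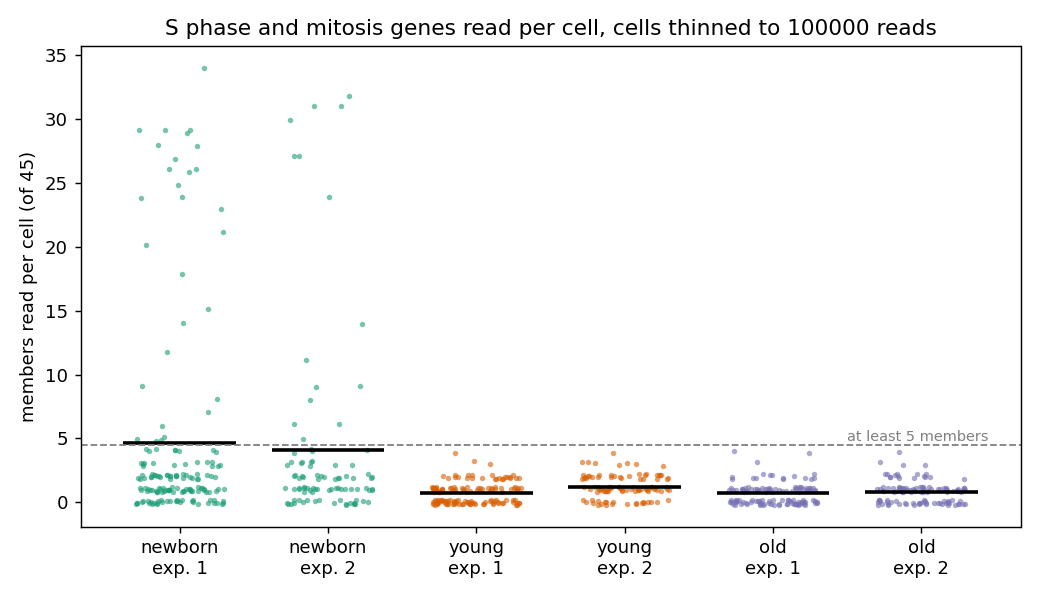
Members read per cell (vertical axis, of 45, cells thinned to 100000 reads) for each age and experiment, with 1 point per cell, spread slightly for legibility, and a bar at the mean. The 44 cells above the dashed line, with at least 5 members, are all newborn, and the adult points end at 4.

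The difference held on every plate. The newborn mean was the highest of the 3 ages on 9 of 9 plates, ranging from 1.90 to 7.69 members, against 0.655 to 1.37 in young and 0.409 to 1.12 in old cells. The share of newborn cells with at least 5 members ranged from 5.00 to 34.4% of the 20 to 32 newborn cells of a plate, and it was 0 on every plate for both adult ages. Young cells had the higher mean of the adult ages on 7 of 9 plates. That difference was small beside its spread between experiments, since old dermis of experiment 2 (0.842) lay above young dermis of experiment 1 (0.761).

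**Figure D2:**
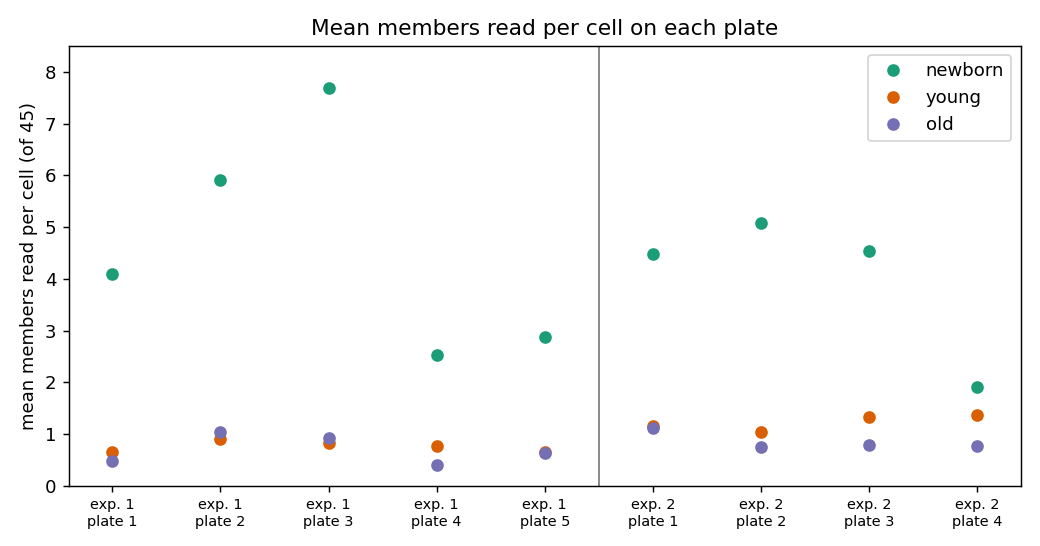
Mean members read per cell (vertical axis, of 45) on each of the 9 plates, 5 of experiment 1 and 4 of experiment 2, with 1 point per age. Newborn points lie highest on all 9 plates, and the adult points lie between 0.409 and 1.37.

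Lower and higher cut-offs gave the same picture for newborn cells and showed how few adult cells came near it. At least 3 members were read in 50 of 158 and 28 of 91 newborn cells (31.6 and 30.8%), in 3 of 142 and 8 of 104 young cells (2.11 and 7.69%) and in 3 of 126 and 4 of 114 old cells (2.38 and 3.51%). At least 10 members were read in 21 and 9 newborn cells (13.3 and 9.89%), and 26 of those 30 cells read 15 or more. Just under the cut-off of 5, 12 newborn and 5 adult cells read 4 members, and just inside it 5 newborn cells read exactly 5.

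The balance between the phases, pooled over the cells of each sum, differed with age. Of all members read, S phase members made up 44.9 and 48.1% in newborn cells, 83.3 and 81.9% in young cells and 79.8 and 84.4% in old cells, where reading every member alike would give 17 of 45. The newborn values lay below all 4 adult values by 35.8 percentage points on average (two-sided exact permutation test over the 6 values, p = 0.0667, again the smallest possible). Over all reads of each cell, Pcna was read in 170 of the 486 adult cells, more than any other member. Without Pcna, a choice made after seeing the data, the S phase shares were 41.2 and 42.2% in newborn cells, 73.9 and 69.7% in young cells, and in old cells 66.0 and 73.7%, so newborn and adult values still did not overlap. A newborn cell read 2.08 and 1.97 S phase members and 2.56 and 2.12 mitosis members on average, an adult cell 0.563 to 1.00 S phase members and 0.127 to 0.221 mitosis members. Cells with many members weigh most in the newborn values. The 193 newborn cells with under 3 members of each phase averaged 0.207 to 0.295 members in each S phase role group. Their mitosis groups averaged 0.0104 to 0.0570, apart from spindle and midzone genes (0.269), with Stmn1 read in 47 cells.

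Newborn cells ranged from S phase members alone to mitosis members alone, whereas no adult cell read more than 2 mitosis members. Some adult cells read 1 or 2 mitosis members and no S phase member. With at least 3 members of a phase as the cut-off, newborn cells of experiment 1 fell into 21 with both phases, 11 with S phase only, 3 with mitosis only and 123 with neither, and those of experiment 2 into 9, 10, 2 and 70. Adult cells held 0 with both, 0 with mitosis only and 10 with S phase only, of which 6 were young and 4 old. These ranges are drawn on a count and are not cell types. On the S phase side 41 newborn and 58 adult cells read 2 members, just under the cut-off, and 13 newborn and 9 adult cells read exactly 3. On the mitosis side 12 newborn and 2 adult cells read 2, and 3 newborn cells read 3.

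**Figure D3:**
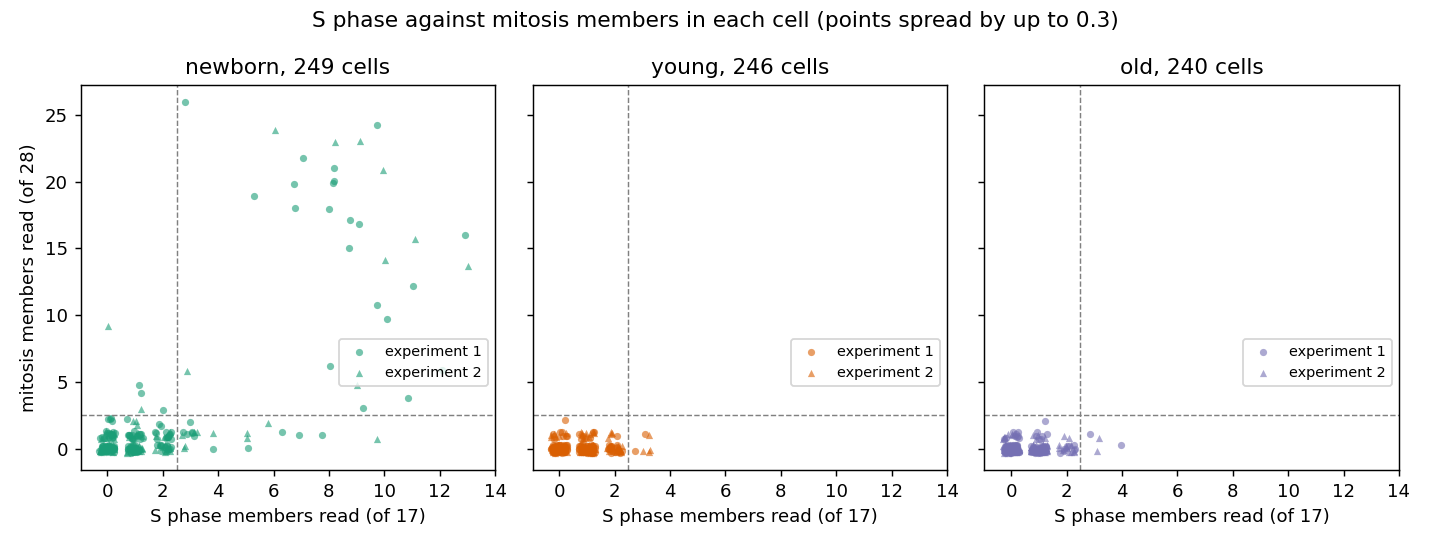
Mitosis members read (vertical axis, of 28) against S phase members read (horizontal axis, of 17) in each cell, 1 panel per age, circles for experiment 1 and triangles for experiment 2, with dashed lines at the cut-off of 3. The upper right of the newborn panel holds 30 cells and that of both adult panels 0.

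The 44 newborn cells with at least 5 members lay along this range. At its ends were a cell with 5 S phase members and no mitosis member and a cell with 9 mitosis members and no S phase member, each the only one of its kind among the 44. Among the 30 cells with at least 10 members, the ends were a cell with 10 S phase members and 1 mitosis member and a cell with 3 S phase and 26 mitosis members. Of the 44, 8 read at least 5 S phase and at most 2 mitosis members, and 19 read 15 or more mitosis members. In 28 cells mitosis members outnumbered S phase members, in 15 cells the reverse held and 1 cell read as many of each. No cell with 15 or more mitosis members read fewer than 3 S phase members. Genes with a read numbered 2879 (median) in these cells against 2105 in other newborn cells of experiment 1, and 3073 against 2685.5 in experiment 2. Median depth was 986592 against 1009333 and 1068178 against 1257539 reads. No doublet caller was run on these singly sorted cells, and the part of gene detection in the member counts was not tested.

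Members differed in how they marked these ranges. Pclaf, a small partner of Pcna at the replication fork, was read in 30 of the 30 newborn cells with both phases, in 2 of 21 with S phase only, in 2 of 5 with mitosis only and in 2 of 193 with neither. Birc5 (survivin), the chromosome passenger protein, was read in 28, 0, 2 and 2 of the same cells, and Tk1, the thymidine kinase, in 25, 2, 0 and 0. Pcna and Stmn1 were spread more widely. Pcna was read in 23 of 30, 16 of 21, 1 of 5 and 44 of 193 cells, and Stmn1 (stathmin, which takes down microtubules) in 30 of 30, 11 of 21, 5 of 5 and 47 of 193. Cdk1, the kinase that drives entry into mitosis, was read in 24 of 30 cells with both phases and in 0 of 193 with neither. Since the members define the ranges, these counts describe them and carry no test.

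For levels, the reads of all kept cells from the same age and experiment were summed. The 6 sums held between 119682449 and 195324769 reads, and CPM below means counts scaled to the TMM-adjusted size of the sum. Counts of cells that read a single gene are from here on over all reads of each cell, while members per cell and the cut-offs of 3 and 5 members stay with thinned cells. In these sums a smaller number of dividing cells and less RNA per dividing cell cannot be told apart. Ages were compared with edgeR's quasi-likelihood test, adjusted over all 16684 genes tested by the Benjamini-Hochberg method at 0.05, and all 45 members were among the genes tested. Of the 45 members, 0 passed the threshold in young against newborn dermis (0.719% of all genes were called higher and 0.0599% lower), 0 in old against newborn (0.797 and 0.138%) and 0 in old against young (0 and 0%). At an unadjusted p under 0.05, edgeR put 24 members lower in young than in newborn dermis (6.15% of all genes) and 25 lower in old than in newborn (7.93%). It put 0 members higher, against 7.12 and 7.28% of all genes. In old against young, 1 member was higher (1.82%) and 0 lower (3.03%). The smallest adjusted p, 0.0578 and 0.0536, belonged to Pbk, a mitotic kinase gene, in the comparisons of young and old with newborn dermis. Both comparisons use the same newborn sums. The test had 3 residual degrees of freedom and a biological coefficient of variation of 1.13, and the count of calls depended on the tool. Limma on the mean log2(CPM + 1) over cells put 33 members lower in young and 37 lower in old than in newborn dermis (4.57 and 6.74% of all genes), and DESeq2 put 26 and 27 lower (6.14 and 8.43%). No member was called higher by limma (1.97 and 1.73% of all genes) or by DESeq2 (8.12 and 8.65%). The same edgeR fit with the mean of both adult ages against newborn dermis, a contrast added after seeing the data, called 4 members lower (0.276% of all genes) and 0 higher (0.983%). These were Pbk (adjusted p = 0.0280), Stmn1 (0.0295), Ccnb1 (0.0381) and Cdk1 (0.0436).

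In levels, both newborn sums lay above all 4 adult sums for 39 of the 45 members (15.8% of all genes tested), 12 of 17 S phase and 27 of 28 mitosis members. The exceptions were Mcm2, Mcm3, Cdc6, Pcna, Tyms and Bub1b. The median log2 fold change over the members was −6.56 in young and −8.75 in old against newborn dermis, beside −0.07 and −0.08 over all genes, and it was 0 in old against young dermis, as over all genes. Young dermis had no reads of 20 members and old dermis none of 20, not all of them the same, and the fitted values of these depend on a prior count. With those members at the bound that a floor of 3 reads gives, the medians were −6.56 in young and −8.67 in old against newborn dermis. In 15 members, 1 of S phase and 14 of mitosis, all 486 adult cells had 0 reads: Tk1, Cdk1, Ccnb1, Aurka, Aurkb, Birc5, Plk1, Bub1, Pbk, Kif11, Cenpe, Spc24, Spc25, Nuf2 and Mki67. Their newborn means of 3.72 to 73.2 CPM were 761-fold to 14970-fold above the adult floor of 0.00489 CPM (3 reads over all adult cells). This floor bounds read counting only and leaves out which cells were drawn. Pairs of an adult cell and a member with a read held a median of 301 reads, so 1 further adult cell could exceed it. Another 16 members were read in 1 to 5 adult cells and 7 in 6 to 19. The 7 read in 20 or more were Pcna, Gins2, Rrm1, Tyms, Dut, Ccna2 and Stmn1.

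**Figure D4:**
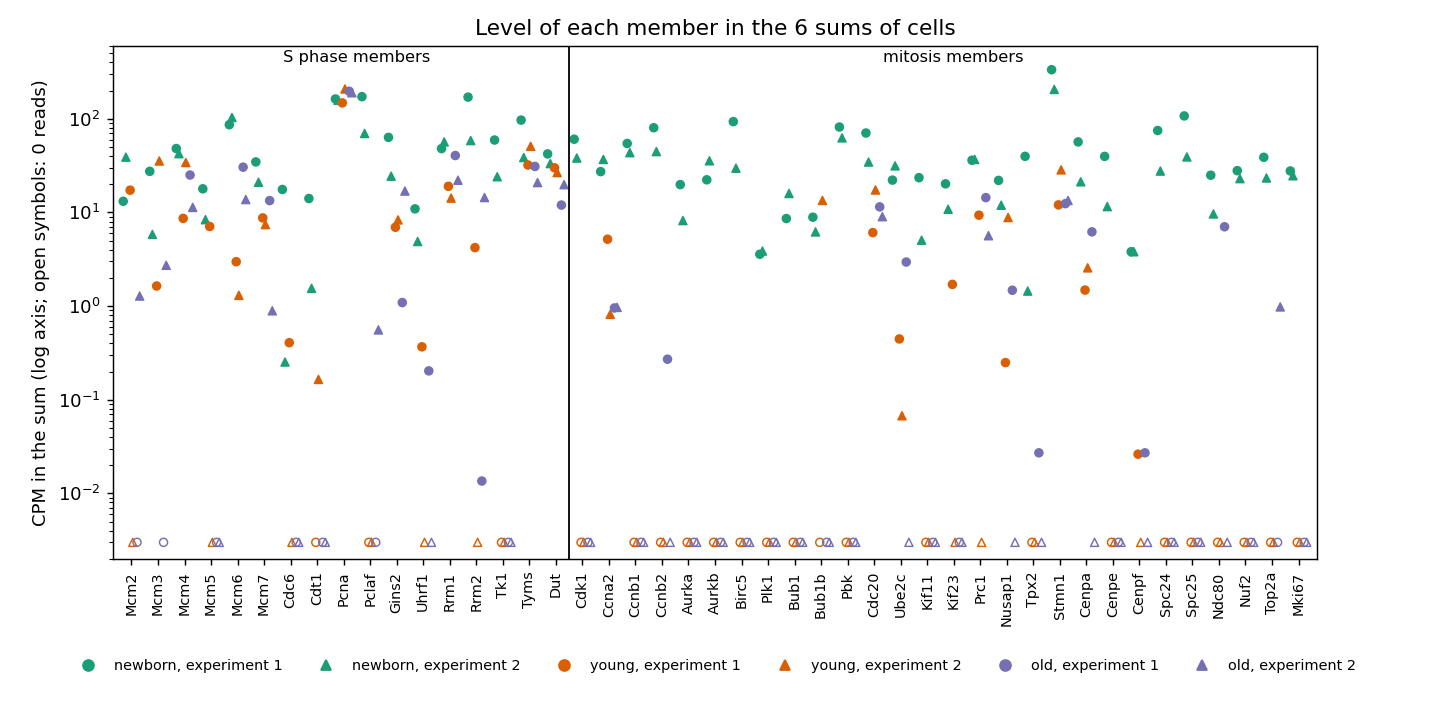
CPM of each of the 45 members (log axis) in the 6 sums, with circles for experiment 1, triangles for experiment 2, colours for the ages and open symbols along the bottom for sums with 0 reads. Both newborn symbols lie above all adult ones for 39 members, and Pcna is level across the ages.

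The 8 origin licensing genes (Mcm2 to Mcm7, Cdc6 and Cdt1) encode the replicative helicase and its loaders. Mcm6 (chr1:128331590-128359664), with the highest newborn level of the group per kb of exon (20.3 CPM), stood at 86.5 and 103 CPM in newborn sums, 2.98 and 1.30 in young sums and 30.4 and 13.7 in old sums. The 3 ages did not overlap, with young dermis lowest. Its log2 fold change in edgeR was −5.47 ± 0.74 (SE, adjusted p = 0.0673) in young and −2.10 ± 0.64 (adjusted p = 0.230) in old against newborn dermis. Mcm4 (chr16:15623897-15637400) stood at 48.1 and 42.4 CPM in newborn sums, 8.64 and 34.1 in young sums and 25.1 and 11.3 in old sums, and the adult ages overlapped. The group was sparse even in newborn dermis. Members read per cell averaged 0.538 and 0.538 of 8 in newborn and 0.0877 to 0.163 in adult sums, and no member of it was read in more than 38 newborn cells. In Mcm2 and Mcm3 a few cells decided the sums. Mcm2 had 13.2 and 39.0 CPM in newborn sums, 17.3 and 0 in young sums and 0 and 1.28 in old sums, and 1 of its 2 young cells held 70.9% of the young reads. Mcm3 had 27.5 and 5.83, 1.64 and 35.5, and 0 and 2.73 CPM, and young cells of experiment 2 lay above both newborn sums. Cdc6 and Cdt1, which load the helicase, were read in 5 and 9 newborn cells and in 1 adult cell each.

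At the fork and in the copying of chromatin act Pcna, Pclaf, Gins2, a subunit of the helicase's GINS complex, and Uhrf1, which carries DNA methylation over to the new strand. Pcna (chr2:132249162-132253314) had the highest adult level of the 45 per kb of exon and stood at 163 and 158 CPM in newborn sums, 148 and 208 in young sums and 197 and 190 in old sums. The ages overlapped, apart from old sums lying above newborn sums, and the edgeR log2 fold changes were 0.15 ± 0.25 (SE, adjusted p = 0.909) in young and 0.27 ± 0.25 (adjusted p = 0.728) in old against newborn dermis. It was read in 86 newborn, 94 young and 76 old cells. Pclaf (chr9:65890237-65903266) was its opposite. It stood at 172 and 69.7 CPM in newborn sums, 0 and 0 in young sums and 0 and 0.557 in old sums. All its adult reads came from 1 old cell, and 33 of the 36 newborn cells that read it were among the 44 with at least 5 members. Gins2 stood at 63.3 and 24.4 CPM in newborn and 1.09 to 16.9 in adult sums. Uhrf1 was read in 13 newborn cells, all among those 44, and in 2 adult cells.

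The 5 nucleotide supply genes split. Rrm2 (chr12:24708241-24714146), the subunit of ribonucleotide reductase made in dividing cells, stood at 170 and 58.6 CPM in newborn sums, 4.21 and 0 in young sums and 0.0136 and 14.4 in old sums. Newborn sums lay above all adult sums, and 1 cell held 99.9% of the old reads and 1 cell 93.5% of the young reads. Dut (chr2:125247190-125258608), which clears dUTP, stood at 42.2 and 33.3 CPM in newborn sums, 30.0 and 26.7 in young sums and 12.0 and 19.8 in old sums. The 3 ages did not overlap, and Dut had an edgeR log2 fold change of −0.41 ± 0.48 (SE, adjusted p = 0.834) in young and −1.25 ± 0.49 (adjusted p = 0.326) in old against newborn dermis. Rrm1, the constant reductase subunit, stood at 48.1 and 56.6 CPM in newborn sums, 19.0 and 14.2 in young sums and 40.5 and 22.1 in old sums. Tyms, thymidylate synthase, stood at 96.9 and 38.6, 32.1 and 50.9, and 31.0 and 20.8 CPM, with newborn and young sums overlapping. Tk1, the salvage enzyme that is broken down after mitosis, stood at 59.3 and 24.1 CPM in newborn and at 0 in all 4 adult sums. Its newborn mean was 8524-fold above the adult floor of 3 reads, which leaves out which cells were drawn. Rrm1, Tyms and Dut were read in 21, 42 and 47 adult cells, Rrm2 and Tk1 in 6 and 0.

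Among the mitosis members, Cdk1 and the cyclins come first. Cdk1 (chr10:69335146-69352938) stood at 60.5 and 38.1 CPM in newborn and 0 in all adult sums (edgeR adjusted p = 0.0938 in young and 0.0840 in old against newborn dermis). Ccnb1 (chr13:100778650-100786570), cyclin B1, stood at 54.5 and 43.5 CPM in newborn and 0 in all adult sums (adjusted p = 0.0838 and 0.0753 in edgeR). Each was read only within the 44 newborn cells with at least 5 members, Cdk1 in 26 and Ccnb1 in 20 of them. Ccnb2 (chr9:70407692-70421547) stood at 80.3 and 44.7 CPM in newborn sums, 0 and 0 in young sums and 0.271 and 0 in old sums. Its 25 newborn cells faced 1 old cell. Ccna2, cyclin A2, which acts from S phase on, was the exception of the group with reads in 20 young and 11 old cells. Its adult reads were few, with medians of 12.0 and 21.1 CPM in the young and old cells that read it against 185 in newborn cells. Its exons overlap those of Exosc9 on the opposite strand, and whether the counting used strand is not given in the sources used here, so reads of the pair cannot be told apart.

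Of the 7 genes of mitotic kinases, the passenger complex and the spindle checkpoint, 6 had no read in adult cells. Pbk (chr14:65805837-65817822) stood at 81.7 and 62.5 CPM and Birc5 (chr11:117849251-117855743) at 93.3 and 29.7 CPM in newborn sums, and both at 0 in all adult sums, at least 14743-fold and at least 12572-fold lower. The edgeR adjusted p of Birc5 was 0.122 in young and 0.108 in old against newborn dermis. Aurora kinases Aurka and Aurkb were read in 12 and 15 newborn cells, the polo kinase Plk1 in 9 and the checkpoint kinase Bub1 in 11, each in 0 adult cells. Plk1 and Bub1 were read only in newborn cells with at least 5 members. Bub1b, the checkpoint protein BubR1, was the only member of the group with an adult read. It stood at 8.90 and 6.19 CPM in newborn sums, 0 and 13.4 in young sums and 0 and 0 in old sums, and all its young reads lay in 1 cell.

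Of the genes of the anaphase-promoting complex, Cdc20 (chr4:118432901-118437352) stood at 70.5 and 34.5 CPM in newborn sums, 6.09 and 17.4 in young sums and 11.5 and 9.01 in old sums. Newborn sums lay above all adult sums, with edgeR log2 fold changes of −2.16 ± 0.75 (SE, adjusted p = 0.312) in young and −2.36 ± 0.75 (adjusted p = 0.243) in old against newborn dermis. It was read in 16 of the 44 newborn cells with at least 5 members and in 12 of the other 205, where, of the mitosis members, only Stmn1 (53 cells), Cdc20 and Ccna2 (10 cells) were read in more than 3 cells. Ube2c (chr2:164769898-164778822), the ubiquitin-conjugating enzyme of the complex, stood at 22.1 and 31.4 CPM in newborn sums, 0.446 and 0.0674 in young sums and 2.95 and 0 in old sums. It was read in 20 of the 44, in 3 other newborn cells and in 4 adult cells. Cdc20 overlaps Elovl1 and Ube2c overlaps Tnnc2 on the opposite strand.

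The spindle and midzone genes include the motors Kif11 and Kif23, the bundling protein Prc1, Nusap1, Tpx2 and Stmn1. Stmn1 (chr4:134468320-134473843) had the highest newborn level of the 45 genes per kb of exon (141 CPM). It stood at 334 and 206 CPM in newborn sums, 12.0 and 28.5 in young sums and 12.4 and 13.4 in old sums. Newborn sums lay above adult sums without overlap, with edgeR log2 fold changes of −3.74 ± 0.55 (SE, adjusted p = 0.0836) in young and −4.39 ± 0.57 (adjusted p = 0.0570) in old against newborn dermis. It was read in 94 newborn cells, of which 53 read fewer than 5 members, in 14 young and in 10 old cells. Prc1 (chr7:80294450-80316259) stood at 36.1 and 36.8 CPM in newborn sums, 9.35 and 0 in young sums and 14.4 and 5.64 in old sums. Its adult reads came from 4 cells, against 23 newborn cells. Tpx2, which recruits Aurora A to the spindle, differed widely between newborn experiments, at 39.7 and 1.45 CPM, and had 4 reads in 1 adult cell. Kif11 was read in 16 newborn and 0 adult cells, Kif23 in 15 and 1 and Nusap1 in 18 and 5.

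At the kinetochore, Spc25 (chr2:69193895-69206194) and Spc24 (chr9:21755442-21760303), which with Ndc80 and Nuf2 form the complex that grips microtubules, stood at 107 and 39.2 and at 75.0 and 27.7 CPM in newborn sums. Both were at 0 in all adult sums, with edgeR adjusted p of 0.107 (Spc25) and 0.123 (Spc24) in young against newborn dermis. Nuf2 was read in 14 newborn and 0 adult cells, and Ndc80 in 15 newborn and 2 old cells. Of the centromere proteins, the histone variant gene Cenpa was read in 22 newborn and 7 adult cells, the motor Cenpe in 17 and 0 and Cenpf in 10 and 2. Of the genes of mitotic chromosomes, Top2a (chr11:98992943-99024189), the topoisomerase that untangles sister DNA, stood at 38.8 and 23.3 CPM in newborn sums, 0 and 0 in young sums and 0 and 0.980 in old sums. Mki67 (chr7:135689784-135716361), which coats chromosomes and is the usual marker of division, stood at 27.7 and 24.6 CPM in newborn sums and 0 in all adult sums, with edgeR adjusted p of 0.144 in young and 0.129 in old against newborn dermis. Its 17 newborn cells were all among the 44.

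**Figure D5:**
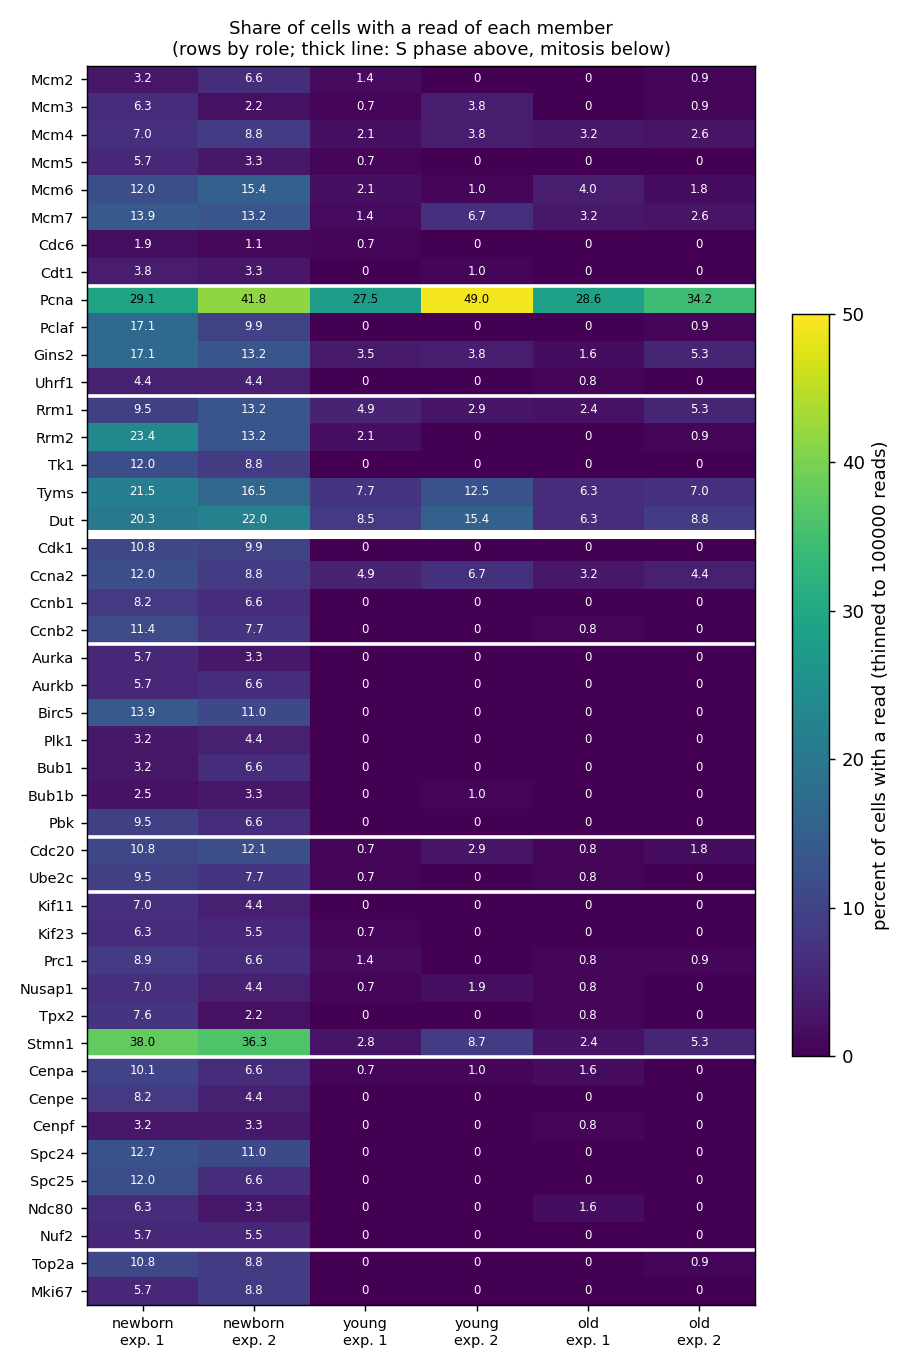
Percent of cells with a read of each of the 45 members (rows, by role, S phase above the thick line) for each age and experiment (columns), cells thinned to 100000 reads. In the 4 adult columns Stmn1 reaches 8.65% and Ccna2 6.73%, the other mitosis rows stay at or under 2.88%, and Pcna is read in cells of all 3 ages.

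Between young and old dermis the members gave no call, and for 41 of 45 the sums of these ages overlapped or were all 0. Both old sums lay above both young sums for 2 members, Mcm6 and Rrm1 (15% of all genes), and below them for 2, Tyms and Dut (15.9%). The young-to-old log2 fold change of Mcm6 was 3.37 in edgeR (adjusted p = 0.906). DESeq2 called 4 members here (2.39% of all genes higher and 3.9% lower), Mcm6 and Ndc80 higher and Mcm5 and Bub1b lower in old dermis. Of these, Mcm5, Bub1b and Ndc80 had reads in 1, 1 and 2 adult cells.

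Adult cells with several members were rare. In all, 18 adult cells, thinned to 100000 reads, read at least 3 members, 11 young and 7 old, and Pcna was among the members in 16 of them, Dut in 7, Rrm1 and Stmn1 in 5 each and Mcm4 and Mcm7 in 4 each. None of the 18 read Cdk1, a B-type cyclin, an Aurora kinase, Top2a or Mki67. This was not particular to them, since Ccnb2 had reads in 1 and Top2a in 2 of the 486 adult cells and the others in 0. The mitosis members that the 18 did read were Stmn1 (5 cells), Ccna2 and Cdc20 (2 each) and Ube2c, Prc1, Cenpa and Cenpf (1 each). The 5 cells with 4 members are named here although the cut-off for naming was 5, so that choice was made after their values were seen. An old cell of experiment 1 read Mcm4, Mcm6, Mcm7 and Dut, 4 S phase members and no mitosis member. The other old cells read Pcna, Tyms, Dut and Ube2c, and Pcna, Gins2, Rrm1 and Cdc20. The young cells read Mcm2, Pcna, Dut and Stmn1, and Pcna, Rrm1, Tyms and Stmn1. No adult cell read more than 2 mitosis members. Using all reads in place of 100000 raised the number of adult cells with at least 3 members to 27, and none reached 5. Of the 466 pairs of an adult cell and a member with a read, 72.3% held 100 or more reads and 5.79% held 1 or 2, beside 84.0 and 2.71% of the 1142 newborn pairs. The 126 wells left out for low quality read 0.135 members on average and at most 2.

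The kept cells carried fibroblast markers, in and outside the cells with many members. Col1a1, a chain of type I collagen, was read in 44 of the 44 newborn cells with at least 5 members and in 205 of the 205 others, and Dcn (decorin) in 44 and 204. Pdgfra was read in 20 of 44 and 78 of 205, and Cd34 in 30 of 44 and 139 of 205. The 7 fibroblast markers summed to a median of 62561 CPM in the 44 cells and 89671 CPM in the others, with ranges of 8352 to 136810 and 7802 to 232600. Of the other cell types' markers, 2 of 9 immune, 1 of 5 mast cell, 4 of 5 epithelial, 1 of 5 endothelial, 3 of 5 pericyte or smooth muscle, 0 of 3 Schwann, 1 of 3 melanocyte and 2 of 4 erythroid genes had a read in the 44 cells, and each list summed to a median of 0 CPM. The highest summed levels in any of the 44 cells were 110, 1.79, 191, 410, 828, 0, 3.17 and 13.8 CPM in that order of lists, and in the other 205 newborn cells 277, 8.27, 665, 1456, 7660, 0, 1190 and 129 CPM. Of the genes of the sort's lineage stains, Ptprc (CD45) and Pecam1 (CD31) were at 0 in the 44 cells. Kit (CD117) and Epcam were each read in 1 of them. Cpa3, Krt5, Cdh5 and Kdr were at 0 as well, and Csf1r, Cd79a, Krt14 and Krt1 were each read in 1 cell. Krt10, in the epithelial list, was read in 7 of the 44 cells, in 46 of the other 205 and in 35.8% of young and 32.9% of old cells. Plvap, in the endothelial list, was read in 18 of the 44 cells and in 4 of the other 205, while the other 4 markers of that list were at 0 in the 44, and it was read in 29.3% of young and 22.9% of old cells. The part of these markers in the result was not tested. In the 18 adult cells with at least 3 members the fibroblast markers summed to 81969 to 206980 CPM (median 155130).

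Lists of further cell cycle genes, which hold no member, were followed in the same way. Of 48 further S phase genes tested, edgeR called 0 in either direction in young or old against newborn dermis, and both newborn sums lay above both young sums for 24 (25.1% of all genes) and above both old sums for 24 (25.7%). Of 46 further mitosis genes, 41 and 37 lay so, and their median log2 fold changes were −6.82 in young and −5.42 in old (−6.26 and −5.42 with genes at 0 set to the same bound). Values follow for the 2 most abundant further S phase genes and the 2 most abundant further mitosis genes. Slbp, which binds histone mRNA, stood at 266 and 240 CPM in newborn sums, 366 and 292 in young sums and 385 and 382 in old sums. Pttg1 (securin), which guards sister chromatids, was the only gene of these lists called higher, and only in old against newborn dermis, at 24.2 and 39.3 CPM in newborn sums, 186 and 167 in young sums and 194 and 209 in old sums. It rose by 2.67 ± 0.32 (log2, SE, edgeR adjusted p = 0.0446) from newborn to old dermis, and its young value was 2.48 ± 0.32 (adjusted p = 0.0584). Pttg1 was read in 19 of the 44 newborn cells, 39 of the other 205, 48.8% of young and 52.9% of old cells. Tipin, of the fork protection complex, stood at 151 and 192, 78.3 and 84.6, and 136 and 90.0 CPM, and Cks1b, a Cdk1 partner, at 132 and 111, 105 and 72.9, and 114 and 55.7 CPM.

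G1 cyclins and their kinases act before S phase. Of the 9 genes of that list, both newborn sums lay above both sums of young dermis for 8 (25.1% of all genes). They lay above both sums of old dermis for 8 (25.7%). By edgeR, 2 were called lower in young (0.0599% of all genes) and 0 in old (0.138%) against newborn dermis. Cdk6 stood at 109 and 90.3 CPM in newborn sums, 6.47 and 9.08 in young sums and 20.2 and 20.8 in old sums, and fell by 3.68 ± 0.41 (log2, SE, adjusted p = 0.0394) in young dermis. Ccnd3, cyclin D3, stood at 165 and 241, 37.6 and 34.3, and 80.9 and 76.6 CPM, and fell by 2.50 ± 0.30 (adjusted p = 0.0464 in edgeR). In both, young sums were the lowest of the 3 ages without overlap, and old against young was not called (adjusted p = 0.906 in edgeR for each). Their values in old against newborn dermis were −2.28 ± 0.38 (Cdk6, adjusted p = 0.0932 in edgeR) and −1.37 ± 0.29 (Ccnd3, adjusted p = 0.143). Cdk4 and Ccnd2 stood at 356 and 346 and at 392 and 339 CPM in newborn sums and at 115 to 195 and 70.1 to 129 in adult sums.

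Of 15 chromatin and tubulin genes of dividing cells, edgeR called 1, Hmgb3, a chromatin protein. It stood at 201 and 96.5 CPM in newborn sums, 12.6 and 9.90 in young sums and 0 and 0.0111 in old sums (edgeR adjusted p = 0.0184 in old against newborn dermis). With 2 reads in all old cells its fitted fold change depends on a prior count and is not given. H2afz, the histone variant H2A.Z, stood at 1243 and 1432 CPM in newborn and 571 to 683 in adult sums, and Tubb5, a tubulin, at 1295 and 844 in newborn and 303 to 558 in adult sums. Of 6 Cdk inhibitors tested, 0 were called, and their median log2 fold change was −0.03 in young and 0.07 in old against newborn dermis. Cdkn1c was read in 36.5% of newborn, 8.54% of young and 5.00% of old cells, and Cdkn1b in 59.0, 63.8 and 59.2%. Cdkn1a (p21) stood at 89.9 and 65.3 CPM in newborn sums, 423 and 303 in young sums and 568 and 378 in old sums, with edgeR log2 fold changes of 2.23 ± 0.35 (SE, adjusted p = 0.0928) in young and 2.61 ± 0.35 (adjusted p = 0.0630) in old against newborn dermis. Of 15 transcription factors of the cell cycle and 11 arrest and quiescence genes, 0 were called. Foxm1, which drives mitosis genes, was read in 11 of the 44 newborn cells, in 1 of the other 205 and in 0.407% of young and 0% of old cells. More widely spread were Tfdp1, read in 19 and 33 of the same newborn cells, and Rbl2, read in 10 and 34. In young and old cells Tfdp1 was read in 4.88 and 7.08% and Rbl2 in 12.2 and 12.9%. Gas6, named for growth arrest, stood at 5.33 and 22.1 CPM in newborn and 534 to 1318 in adult sums (adjusted p = 0.109 in young and 0.0933 in old dermis in edgeR). Its list had median log2 fold changes of only 0.11 in young and 0.20 in old against newborn dermis. Tob1 and Foxo1 were also read in larger shares of adult cells. Btg1 (70.3% of newborn, 69.1% of young and 65.0% of old cells) and Foxo3 (22.1, 22.0 and 21.7%) changed little, and Trp53 (27.3, 24.0 and 15.8%) fell.

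The genes outside the 45 that followed the number of members most closely over newborn cells were taken next. Over 158 and 91 newborn cells, the mean Pearson correlation of log2(CPM + 1) with the number of members was 0.752 for Hist1h4d, a replication-coupled histone gene, the highest of 5349 genes compared. Next came Tacc3 (0.731), a spindle protein, and Lockd (0.731), a long non-coding RNA. Gm11223, Cenpw, Gm4739, Tmpo, Mxd3, Smc2 and Tyms-ps followed at 0.617 to 0.684. Of these, Gm11223, Gm4739 and Tyms-ps are processed pseudogenes. Tyms-ps is a copy of the member Tyms, so its value cannot be told apart from that of a member. Gm11223 was read in 41 of the 44 cells, 49 of the other 205, 14 young and 6 old cells, beside 41, 53, 14 and 10 for Stmn1. Whether pseudogenes took up reads of members was not tested. Hist1h4d was read in 22 of the 44 cells and in 8 of the other 205, and Tacc3 in 21 and 8. The cells share plates and libraries, and cells with more genes read more members, so these values are descriptions.

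Several members have copies or neighbours that counting could mix. Pcna-ps2, a processed copy of Pcna, held 11156 newborn and 23732 adult reads beside 56070 and 113532 on Pcna, so the level of Pcna is uncertain to that extent. Ccnb1-ps held 1589 newborn and 0 adult reads and Tyms-ps 174 and 107. Exons of 11 of the 45 members overlap those of another gene.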

How the data were processed

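The deposited tables, 1 per plate, hold raw read counts per gene and well, whole numbers as the authors left them; 74.9% of the nonzero values are even. The submitters' processing notes name GRCm38 and FastQC, and which aligner, counting program and strand setting were used is not given in the sources used here. Of 1049 labelled columns 5 held no value. Well by well, 2 pairs of plates correlated at 0.9932 and 0.9927 (at most 0.348 for other pairs) and were taken as 2 runs of the same wells, whose counts were summed, leaving 861 wells on 9 plates. Cells with at least 50000 reads on genes, 1000 genes and at most 25% mitochondrial reads were kept (735), each with 246349 to 4331293 reads. GENCODE M21 gave symbols, positions and exon lengths.

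Counts per age and experiment (n = 2 per age) were compared with edgeR 4.0.16 (TMM, filterByExpr, robust quasi-likelihood, age as the only term, Benjamini-Hochberg threshold 0.05), with limma 3.58.1 and DESeq2 1.42.0 as alternatives, in R 4.3.3. Standard errors are the absolute log2 fold change over the square root of F. Shares of cells carry Clopper-Pearson 95% intervals. Scripts were tested on simulated data. The members and lists were chosen with earlier results of these data known. Full values were given for members past the threshold and for the 2 of each role with the highest newborn CPM per kb. They were also given for the 2 most abundant or any called genes of the further S phase, further mitosis, G1 and chromatin lists. Of the transcription factors, Cdk inhibitors and arrest genes, selected genes were named and that rule was not followed. The 10 genes most correlated with the member count and 4 promoters were given too.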

Additional observations from a re-analysis of the deposited data

How the results depend on the processing

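The number of members called depended on the test. In young against newborn dermis it was 0 with edgeR, 3 without a filter on low counts, 6 with cells thinned to 100000 reads, 26 with DESeq2 and 33 with limma fitted to cell means of log2(CPM + 1). In old against newborn dermis it was 0 with edgeR and 3, 5, 27 and 37 under the same alternatives. A separate contrast, the mean of both adult ages against newborn dermis, was added after seeing the data and called 4 members (0.276% of all genes lower). All these calls were lower than newborn. Of all genes, edgeR called 0.0599% lower in young and 0.138% lower in old against newborn dermis. The same shares were 6.14 and 8.43% with DESeq2 and 4.57 and 6.74% with limma. No such share is given here for the fits without the filter or with thinned cells, so their counts cannot be set beside one. DESeq2 called 4 members in old against young dermis (2.39% of all genes higher and 3.9% lower). DESeq2 and limma shared 23 called members in young and 25 in old against newborn dermis, and the share of all genes called by both is not given here. With the replicate block, experiment as a term, 0 members were called in any comparison. It called 25, 0 and 51 genes in young against newborn, old against young and old against newborn dermis. In the main fit the experiments were not treated as pairs, because deviations of same-numbered sums correlated at 0.0266, 0.0387 and 0.0192. Yet every plate held all 3 ages, and median genes per cell were higher in experiment 2 at each age. Newborn medians were 2192.5 and 2746 (experiments 1 and 2), young ones 1968 and 2515.5, old ones 1813.5 and 2137. The low correlations therefore cannot decide whether the ages shared an effect of experiment. The permutation test exchanged sums across experiments too. Leaving out each sum in turn gave 0 to 0 members called in every comparison.

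The newborn-to-adult difference in members per cell ranged from 3.21 to 3.76 when a sum was left out, the share of cells with at least 5 members from 16.5 to 18.4 percentage points and the S phase share from -37.5 to -34.2 points. These 3 results kept their direction under every planned setting.

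Signs in young and old against newborn dermis were checked for the 2 members of each role with the highest newborn CPM per kb. Tk1, Cdk1, Plk1, Bub1b, Ndc80, Mcm2, Mcm3, Mcm5, Tyms, Rrm1 and Cenpf were checked as well, and the remaining members were not. Among the members checked, the log2 fold changes of 4 turned their sign, and the cause was not tested. In young against newborn dermis, Mcm3 (0.16) was at -0.486 with thinned cells, -2.99 with the replicate block and -0.172 with limma, and between -3.34 and 1.67 when a sum was left out. With a sum left out, Pcna ranged from -0.112 to 0.382, Tyms from -1.22 to 0.104 and Bub1b from -13.3 to 0.834. Pcna in old against newborn dermis (0.27), where the old sums lay above the newborn sums, was at -0.219 with limma.

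Sums of 2 experiments limit every test, the permutation test cannot go below p = 0.0667, and 0 of 486 adult cells leaves shares of up to 0.617% (3 cells) or 0.756% (exact 95% limit) possible.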
